A study of Drosophila melanogaster with 2 samples.

Results

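The subject is tara (taranis, Ensembl FBgn0040071), a protein-coding gene on chromosome arm 3R of Drosophila melanogaster, and the places along it where tagged CG10462 protein was found in embryos by chromatin immunoprecipitation with sequencing (ChIP-seq). The gene was chosen by its large number of summits in earlier results of these data, so its summit number and density are descriptions and were not tested. Its members are the peaks whose summit (the position of highest enrichment that the authors' caller reported) lies from 2 kb upstream of the gene to its end. By that rule tara held 11 of the 2993 peaks in the authors' optimal list, 39 of 30000 entries in their pooled relaxed list, 39 of 30000 in that of replicate 2 and 18 of 30000 in that of replicate 3. The optimal list holds peaks reproducible between replicates by the irreproducible discovery rate (IDR), and a relaxed list holds peaks together with background.

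Both samples were whole embryos aged 0 to 24 hours, male and female pooled, of the strain CG10462-GFP. The transgene in these flies carries the GFP tag at the C-terminal end of CG10462, and the tag was what the antibody bound. The samples are labelled biological replicates 2 and 3 of 1 group. Chromatin from untagged flies, or input, was not analysed here. The promoter that drives the fusion is not given in the sources used here. Every cell type of the embryo contributed chromatin, so a strong peak in few cells cannot be told apart from a weak peak in many. Read numbers are not part of these lists, and depth is therefore unknown for both replicates. Both replicate lists have the same length and nearly the same number of entries on 3R (6903 in replicate 2 and 6905 in replicate 3).

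The gene taranis belongs to the trithorax group, whose products help to keep developmental genes active through cell divisions, and its protein is related to the vertebrate SERTA-domain regulators of transcription and the cell cycle. In flies it is known for promoting sleep together with Cyclin A, with the kinase Cdk1 acting against them, and for protecting regenerating wing discs from changes of cell fate. A ChIP-seq summit marks where the tagged protein, or a complex holding it, was crosslinked to the DNA, and it does not show whether the nearby gene responds.

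In dm6 the gene runs from 16225651 to 16260329 on the plus strand (34679 bp), and the counted window of 36679 bp starts at 16223651. It has 2 annotated transcripts with 2 exons each. The longer one, tara-RA, starts at 16225651 with an exon of 789 bp, followed by an intron of 30338 bp. The shorter one, tara-RB, starts inside that intron at 16242816 with an exon of 514 bp and has an intron of 13448 bp. Both share the last exon of 3552 bp, which holds 2724 bp of coding sequence and a 3′ UTR of 825 bp.

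The sequence under the summits differed among the members, and 5 are shown, chosen by rank and position. Each line gives 100 bp of the plus strand, 5′ to 3′, from the Release 6 assembly (dm6), with the summit at base 51 and the longest run made only of A and T in capitals. Where runs tie in length, as in the first and the third sequence, the capitals mark the one nearest the 5′ end. The first 3 are the strongest peaks, the fourth is the one nearest to a tara start, and the fifth is the weakest.
upstream of tara-RA, chr3R:16224458-16224557: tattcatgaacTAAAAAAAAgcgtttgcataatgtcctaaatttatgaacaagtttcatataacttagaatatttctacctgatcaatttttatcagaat
intron, 11.3 kb from the start, chr3R:16236942-16237041: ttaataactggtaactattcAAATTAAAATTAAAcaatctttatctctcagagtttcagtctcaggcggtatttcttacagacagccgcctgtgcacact
intron, 16.0 kb from the start, chr3R:16241576-16241675: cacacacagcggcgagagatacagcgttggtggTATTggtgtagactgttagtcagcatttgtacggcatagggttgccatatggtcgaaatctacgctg
intron, 280 bp before tara-RB, chr3R:16242486-16242585: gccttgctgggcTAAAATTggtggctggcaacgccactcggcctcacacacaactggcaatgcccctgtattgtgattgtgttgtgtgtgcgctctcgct
intron, 28.1 kb from the start, chr3R:16253742-16253841: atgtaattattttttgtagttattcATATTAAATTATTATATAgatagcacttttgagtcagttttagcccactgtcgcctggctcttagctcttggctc

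The optimal peaks of tara lay upstream of the gene and in its long intron, and none had its summit on an exon. One peak lay 1143 bp upstream of the tara-RA start, 6 lay in the intron between the first exon of tara-RA and the start of tara-RB, and 4 lay after the first exon of tara-RB. Per kb of sequence, the first intron stretch held 0.366 summits over 16.4 kb and the second 0.297 over 13.4 kb. In all, 10 of 11 summits were in a gene and on no exon. Over all optimal summits the share was 45.0%, from which nothing is read, since the members were picked by lying at 1 gene whose window is mostly intron.

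Within 500 bp of an annotated start lay 1 of the 11 summits. The share over all optimal summits was 53.6%, given as a description only, because the window of tara is long and holds few starts. That summit, 280 bp upstream of tara-RB, had a signal value of 74.5 on the scale of the authors' caller and a rank of 2216 in the optimal list, where 1 is the strongest peak. At the tara-RA start itself the nearest entry of the pooled list was 205 bp inside the first exon, with a signal value of 27.2 and a rank of 10947, outside the optimal list. With the 2993 strongest entries of replicate 3 alone, 0 tara summits lay within 500 bp of a tara start, and with those of replicate 2 alone 1 did.

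**Figure D1:**
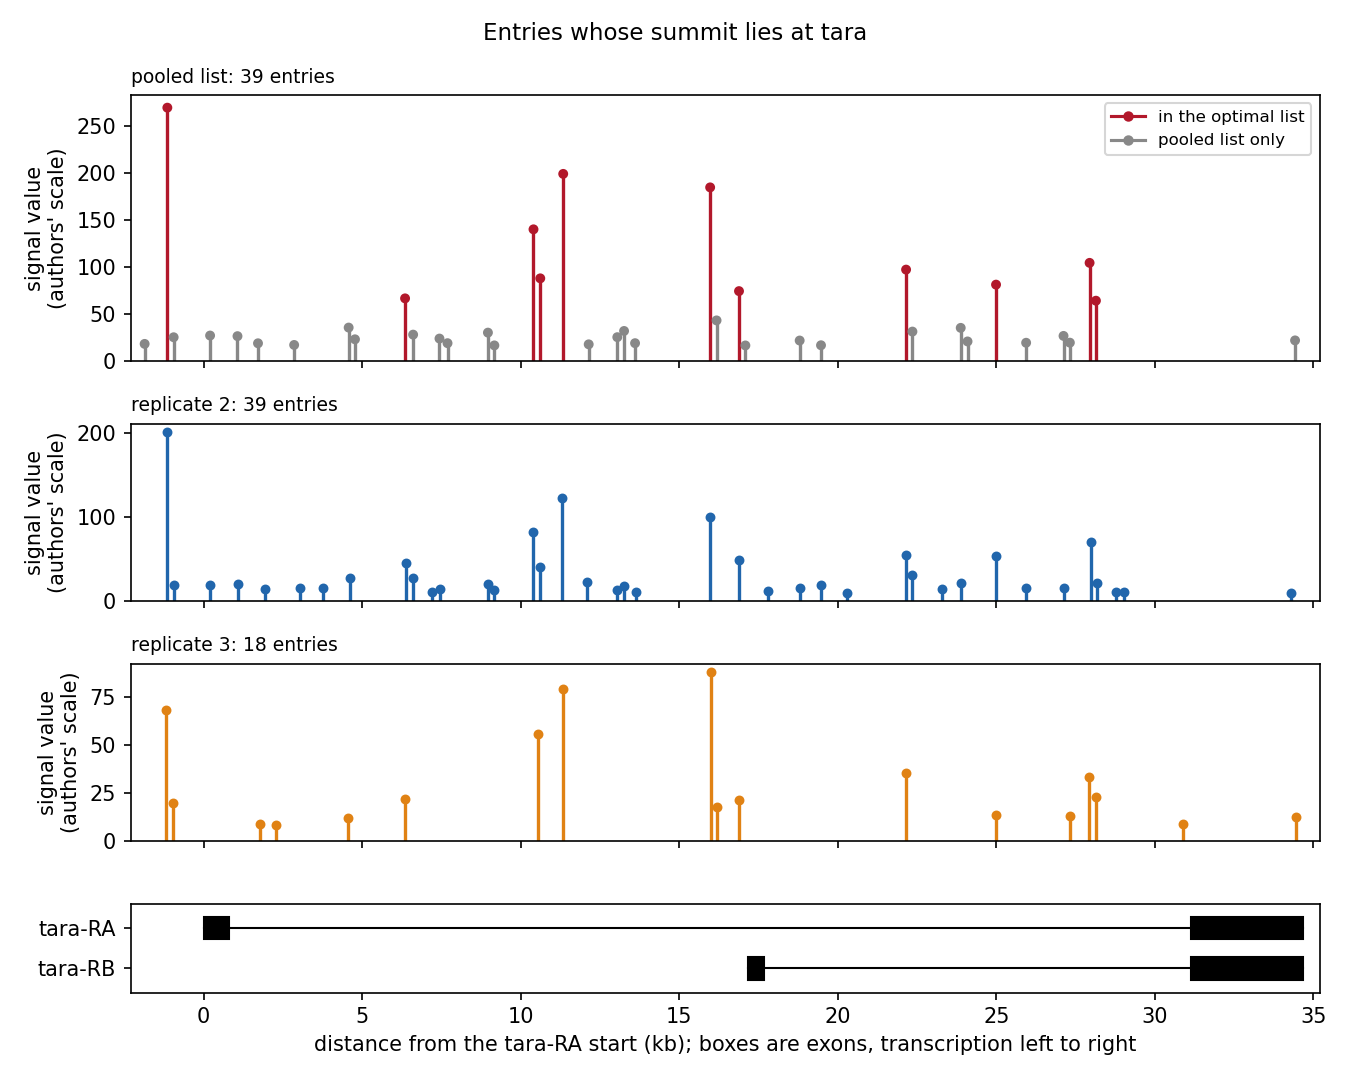
Entries whose summit lies at tara, by distance from the tara-RA start (kb, horizontal) and signal value (vertical, authors' scale, which differs between lists). The upper panel shows the 39 pooled entries with the 11 optimal peaks in red, the middle panels show the 39 entries of replicate 2 and the 18 of replicate 3, and the lowest shows the exons of both transcripts. The peaks 1143 bp upstream, 11.3 kb and 16.0 kb into the gene are the highest 3 in every list.

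The strongest peak was the upstream one. Its summit at 3R position 16224508 had a signal value of 270.1 in the combined list (rank 164), 201 in replicate 2 (rank 95) and 68.3 in replicate 3 (rank 478). It lay 908 bp from the nearest annotated start of any gene, that of a transcript of the noncoding RNA gene lncRNA:CR45643, whose end reaches into the counted window. Its rank was thus higher in the list of replicate 2 than in that of replicate 3.

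The next peaks by signal were inside the intron, upstream of tara-RB. The peak 11.3 kb from the tara-RA start (summit 16236992) had a signal value of 199 in the combined list (rank 326), 123 in replicate 2 (rank 310) and 79.0 in replicate 3 (rank 346). The peak 16.0 kb from that start and 1190 bp before tara-RB (summit 16241626) had 185 in the combined list (rank 387), 100.1 in replicate 2 (rank 525) and 87.7 in replicate 3 (rank 274). Together with the upstream peak these were the strongest 3 at tara in each replicate. Their order differed, with the upstream peak first in replicate 2 and the 16.0 kb peak first in replicate 3.

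A pair of overlapping peaks lay 10.4 and 10.6 kb from the tara-RA start, with summits 214 bp apart. The first (summit 16236055) had a signal value of 140.4 and rank 703 in the combined list, and the second (summit 16236269) had 88.1 and rank 1715. Replicate 2 also had 2 entries here, at signal values of 82.7 (rank 803) and 40.8 (rank 2872). In replicate 3 a single entry with a signal value of 55.9 (rank 729) overlapped both, and its summit lay between theirs, 134 bp from the first and 80 bp before the second. The lists therefore do not settle whether this stretch holds 1 or 2 sites.

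A second overlapping pair lay 27.9 and 28.1 kb from the tara-RA start, with summits 200 bp apart. Other pooled entries at tara were spaced alike, such as 199 bp after the upstream peak and 200 bp after the peak at 22.2 kb. No pooled gap at tara was below 199 bp, and the origin of this spacing was not tested. The stronger one (summit 16253592) had a signal value of 105 in the combined list (rank 1286), 70.8 in replicate 2 (rank 1100) and 33.5 in replicate 3 (rank 1808). The weaker one (summit 16253792) was the last tara peak of the optimal list, with 64.3 in the combined list (rank 2835), 21.6 in replicate 2 (rank 8202) and 23.1 in replicate 3 (rank 3265). In all, 4 of 11 tara peaks overlapped another optimal peak, against 6.82% of the whole list. Nothing is read from this, since tara was chosen for its number of summits and each overlapping pair adds to that number. Counting overlapping peaks once, a setting chosen after seeing the data, left 9 peaks at tara.

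The remaining members were of middling or low rank. The peak 22.2 kb from the tara-RA start (summit 16247805) had signal values of 97.4 (combined list), 54.9 (replicate 2) and 35.6 (replicate 3), at ranks 1445, 1750 and 1631. The peak at 25 kb (summit 16250642) had 81.4 (combined list), 53.2 (replicate 2) and 13.7 (replicate 3), at ranks 1924, 1850 and 10156. Its replicates were thus the farthest apart in rank among the 11. The peak at 6.35 kb (summit 16232005) had 66.8 (combined list), 45.4 (replicate 2) and 22.1 (replicate 3), at ranks 2677, 2417 and 3548. The summit 280 bp before tara-RB had ranks of 2167 in replicate 2 and 3743 in replicate 3.

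**Figure D2:**
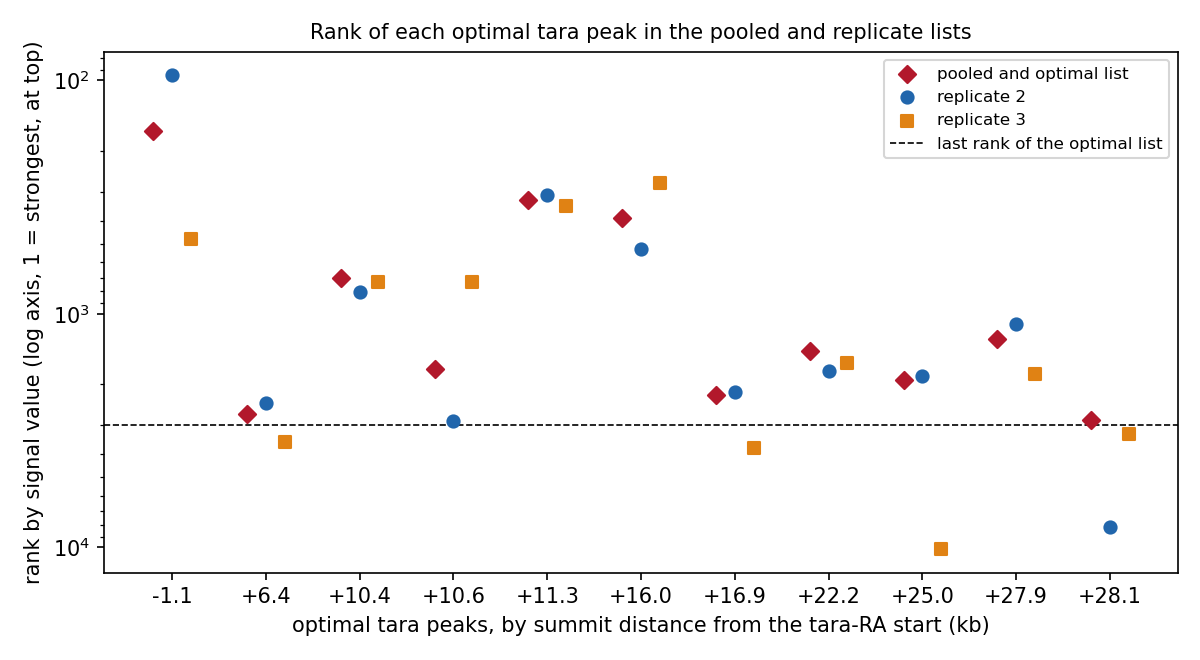
Rank by signal value (log axis, 1 at the top) of the 11 optimal tara peaks in the combined list (diamonds), replicate 2 (circles) and replicate 3 (squares), placed by summit distance from the tara-RA start (kb). The dashed line is rank 2993, the last of the optimal list; the squares at 10.4 and 10.6 kb are the same entry, and the square farthest below the line is the peak at 25 kb, at rank 10156.

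Both replicates had an entry at every optimal tara peak. Overlap by at least 1 bp with an entry of the relaxed list was found for 11 of 11 in replicate 2 and 11 of 11 in replicate 3, against 99.9% and 98.6% of all optimal peaks, so these counts are near the background. Limited to the 2993 strongest entries of each replicate, the numbers were 11 of 11 for replicate 2 (87.1% of all optimal peaks) and 8 of 11 for replicate 3 (83.1%). The peaks without a strong entry in replicate 3 were those at 6.35, 16.9 and 25 kb. When the overlap had to cover at least 0.5 of both the peak and the entry, the number for replicate 3 was 5. The peaks at 10.4 and 16.0 kb, 113 and 141 bp wide, were too narrow for that rule. Entries of replicate 3 had a median width of 396 bp. The counts at 1 bp, 11 of 11 and 8 of 11 with a strong entry, lean on neighbours. The peak at 28.1 kb met the 1 bp rule in both replicates through the entry of the peak at 27.9 kb. The pair at 10.4 and 10.6 kb shares 1 entry of replicate 3.

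Neither replicate ranked the members higher throughout. The rank was better in replicate 2 for 6 of the 11 peaks and better in replicate 3 for 5, while 46.8% of the 2948 optimal peaks with both entries ranked better in replicate 2. The median rank of the members was 1750 in replicate 2 and 1631 in replicate 3, and over all optimal peaks with both entries it was 1526.5 and 1498.5. Across the 11 peaks the ranks in the replicates had a Spearman correlation of 0.67, against 0.57 over all optimal peaks with both entries. This is a description, since members share 1 gene and 2 of them share 1 entry of replicate 3. Summits of matched entries lay a median of 6 bp from the combined summit in replicate 2 and 15 bp in replicate 3, against 9 and 19 bp over all optimal peaks.

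The number of strong entries depended on the replicate. Among the 2993 strongest entries of each replicate, tara held 10 summits in replicate 2 and 6 in replicate 3. By this number it ranked 3 among 18164 genes in replicate 2 and 11 in replicate 3, where 11 genes shared its value. In the optimal list it ranked 4. The large number of strong summits at tara therefore rested more on replicate 2, and with 2 replicates this spread cannot be tested.

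The relaxed lists differed in the same direction. Replicate 2 had 39 entries at tara and replicate 3 had 18, a ratio of 2.17. Among the 997 protein-coding genes of similar length (windows of 18.3 to 73.4 kb) that had entries in both relaxed lists, the median ratio was 1.00, and 39 had a ratio at or above that of tara. Of the 18 entries of replicate 3, 17 were overlapped by an entry of replicate 2, against 46.7% over its whole list. Of the 39 entries of replicate 2, 18 were overlapped in replicate 3, against 50%. Among these, 10 entries of replicate 3 and 11 of replicate 2 are the matches of the optimal peaks, which were listed for being reproducible. Replicate 2 entries also covered 38.5% of the window. The shares are therefore given as descriptions only.

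Beneath the optimal peaks, tara held 28 further pooled entries of much lower rank. As the members were picked through these lists, the share of pooled entries in the optimal list, 11 of 39 at tara and 9.98% over the list, is given only as a description. No tara entry lay just below the last optimal rank. The weakest optimal member ranked 2835, and the strongest entry outside the list ranked 5154 with a signal value of 43.3; it lay 16.2 kb from the tara-RA start, beside the 16.0 kb peak. Of the 28 entries, 27 were overlapped by an entry of replicate 2 (73.1% of all such pooled entries) and 11 by one of replicate 3 (63.4%). Some of these overlaps were only with the entry matched to a neighbouring optimal peak. In replicate 3 this held beside the peaks at 6.35, 16.9 and 22.2 kb, and in replicate 2 beside those at 16.0 and 16.9 kb.

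Most pooled entries lay in the intron, which makes up most of the window. On an exon of tara were 2 of the 39 pooled summits, 1 in the first exon of tara-RA and 1 in the shared last exon, and of all pooled entries 20.4% were on any exon, with no reading drawn for the same reason. Per kb, the stretch upstream of tara-RA held 1.5 pooled entries, the first exon of tara-RA 1.27, the intron before tara-RB 1.34, the intron after its first exon 0.892 and the last exon 0.282. The first exon of tara-RB held 0, and the values upstream and in the first exon of tara-RA rest on 3 and 1 entries. The longest stretch without a pooled summit was 6280 bp, from the peak at 28.1 kb to an entry in the last exon. In all, pooled entries covered 35.0% of the window and optimal peaks 9.09%.

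The edges of the window decided whether some strong peaks counted. Just outside it, 3167 and 3784 bp upstream of the tara-RA start, lay optimal summits at 16222484 and 16221867. Their signal values were 332 (rank 89) and 163 (rank 523), so the nearer one was stronger than any tara member. It ranked 113 in replicate 2 and 67 in replicate 3, and the other ranked 500 and 600. Both lay in the window of lncRNA:CR45643, which held 2 optimal summits. Extended to 5 kb upstream, the tara window held 13. On the other side, the nearest pooled entry was 799 bp past the gene end with rank 3342, outside the optimal list, and bor, the next gene (a mitochondrial ATPase gene), held 0 optimal summits and 1 pooled entry. The next gene upstream of lncRNA:CR45643, lncRNA:CR45641, held 0 optimal summits and 4 pooled entries.

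Set beside the other genes with many summits, tara was short. Its window held 0.300 optimal summits per kb, 13.4 times the 0.0224 per kb over the listed chromosomes. The lncRNA:CR44357 window held 14 summits at 0.058 per kb, that of CG1677 (which overlaps it) 13 at 0.103, that of kirre, a gene of muscle cell adhesion, 13 at 0.033, and those of ush, which encodes a cofactor of GATA factors, and sbb, which encodes a nuclear corepressor, 9 each at 0.136 and 0.111. All these windows were at least as long as 66.3 kb, against 36.7 kb for tara. Summits of these genes also lay in introns, 9 of 9 for ush and 13 of 13 for kirre. Peaks that overlapped another optimal peak numbered 4 of 11 at tara, 2 each in the windows of lncRNA:CR44357 and CG1677, and 0 in those of ush, sbb and kirre. These numbers are descriptions only, because overlapping peaks add to the summit number for which tara was chosen.

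Among 1097 other protein-coding genes of similar length, the median number of optimal summits was 0 and the highest was 9, that of ush. The next were CHES-1-like (a forkhead-family gene) and Raf (the kinase of the MAP kinase pathway) with 8 each, and pnt (an ETS transcription factor gene of the same pathway), Tlk (tousled-like kinase), Hr4 (a nuclear receptor gene) and shn (schnurri, a zinc finger cofactor of Dpp signalling) with 7 each. With overlapping peaks counted once, tara had 9, the same as ush. In replicate 2 alone tara had the most strong entries of the genes of similar length, with 10. In replicate 3 alone it had 6, a value 6 of these genes shared at rank 5, after CHES-1-like, Raf and shn with 9 each and ush with 8.

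By density, tara ranked 5 among the 42 genes with at least 5 optimal summits. With the strong entries of 1 replicate alone, it ranked 8 among 43 such genes in replicate 2 and 15 among 46 in replicate 3. With overlapping peaks counted once it ranked 6 among 38. Closest to its 0.300 per kb were CG14434 at 0.289 (5 summits), CHES-1-like at 0.275 (8 summits) and Trl at 0.331 (5 summits), compared over the combined list of the 2 replicates. These 3 were the nearest by the difference in summits per kb alone. By the strong entries of 1 replicate alone, all 3 were denser than tara. In replicate 2 tara had 0.273 per kb, against 0.405 for CG14434, 0.310 for CHES-1-like and 0.397 for Trl. In replicate 3 tara had 0.164, against 0.347, 0.310 and 0.265 in the same order. With overlapping peaks counted once, tara fell to 0.245 per kb and CG14434, CHES-1-like and Trl did not change.

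**Figure D3:**
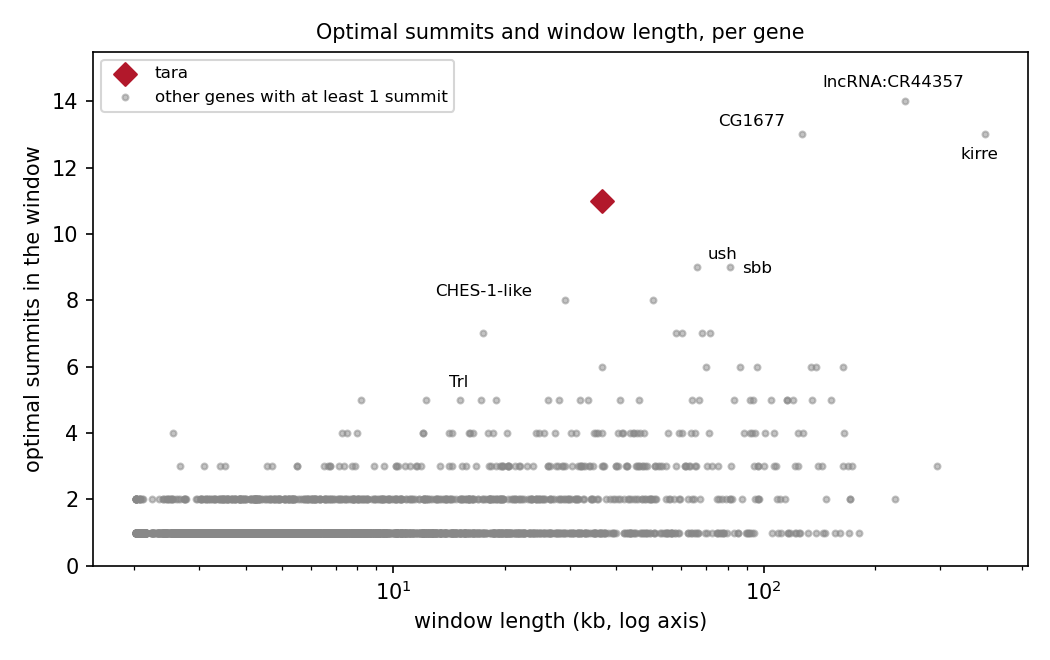
Optimal summits in the window of each gene (vertical) against window length (kb, log axis, horizontal), with tara as a red diamond and other genes with at least 1 summit as grey points. The tara point, at 36.7 kb and 11 summits, sits above all other genes of 18.3 to 73.4 kb, the highest of which has 9; CG1677, kirre and lncRNA:CR44357 have more summits over longer windows.

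Genes that work in the same processes as tara are described by their own counts, since tara was chosen for its large number. Of 16 matched genes of the trithorax group and its partners, 9 held an optimal summit in their window. Of all 18164 genes, noncoding ones included, 18.8% did, and of the 13945 protein-coding genes 2985 did. The highest number in the list was 5, at Trl (0.331 per kb). Trl, which encodes the GAGA factor, had its strongest summit at rank 33, osa, a subunit of the Brahma complex, at rank 51, trx, the histone methyltransferase gene that names the group, at rank 113, and brm, the Brahma ATPase gene, at rank 341. One name, lid, matched no gene. Window length differs between these genes and all genes and was not adjusted for.

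The cell cycle and sleep partners differed among themselves. Cdk1 held 2 optimal summits in a window of 3.52 kb (0.568 per kb), the better at rank 1615, while CycA held 0 and its best pooled entry ranked 6808. Of 12 cell cycle genes, 5 held a summit, set beside the same 18.8% of all genes, with CycE (the cyclin of S-phase entry) at rank 947, Dp (the partner of E2F, 0.386 per kb) at 1069, E2f1 at 1280 and fzr (an activator of the anaphase-promoting complex) at 1508. Among 11 sleep genes 2 did, wake at rank 1132 and Cdk1, a share near that of all genes. Of 7 genes of Jun kinase signalling and regeneration 3 did, egr (a TNF-family ligand) at 1175, puc (the pathway's phosphatase) at 1639 and kay (Fos) at 2041.

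The bases under the summits were AT-rich at most members but not at all. In the 100 bp at the summit, the share of G and C bases had a median of 33% over the 11 tara peaks (lowest 24%, highest 56%), against 32% over all optimal peaks. In the flanks, 100 bp centred 400 bp to each side, the medians were 49.5% at tara and 44.5% over all. The centre was lower than the flanks at 7 of 11 tara peaks and at 83.5% of all optimal peaks. The mean difference of centre minus flanks was -9.59 percentage points at tara (SD 17.5, n = 11) and -11.6 over all (SD 11.8, n = 2993). The medians stood in the other order, -16.5 at tara and -12.5 over all, and the difference was not tested.

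The strongest peak had the most AT-rich centre and the widest gap. At the upstream summit the centre held 24% G and C and the flanks 56%, and the sequence printed for it has a run of 9 bases of A and T. The peaks at 10.4, 22.2 and 27.9 kb had centres of 28%, 33% and 26% and flanks of 54%, 55% and 43%. The weakest peak, at 28.1 kb, had 33% against 54.5%, with an A and T run of 18 bases. Over the 11 members the longest such run had a median of 9 bases, against 10 over all optimal peaks.

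Some centres were not lower in GC than their flanks. At 16.9 kb, just before tara-RB, the centre held 56% G and C and the flanks 37.5%. The peak at 25 kb had 51% against 38%, that at 16.0 kb 50% against 38.5%, and that at 6.35 kb 43% against 41.5%. Low GC stood to 1 side in 3 of these, with 27% in the left flank at 16.9 kb, 29% in the right flank at 16.0 kb and 22% in the right flank at 25 kb. The sequences printed for 16.0 and 16.9 kb hold A and T runs of 4 and 7 bases at most.

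By the 1 bp rule, base composition differed between members with and without a strong entry in replicate 3. The 3 peaks without one had centres of 43% to 56% G and C, while the 8 with one had 24% to 50%. The medians were 51% and 33%. Among the 8, the peak at 28.1 kb (33%) counted only through its neighbour's entry, its own ranking 3265. By its own entry it would stand with the 3. The pair at 10.4 and 10.6 kb shared 1 entry. Over all optimal peaks the medians were 35% for the 505 without a strong entry in replicate 3 and 31% for the 2488 with one. The part of composition in the replicate difference was not tested.

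**Figure D4:**
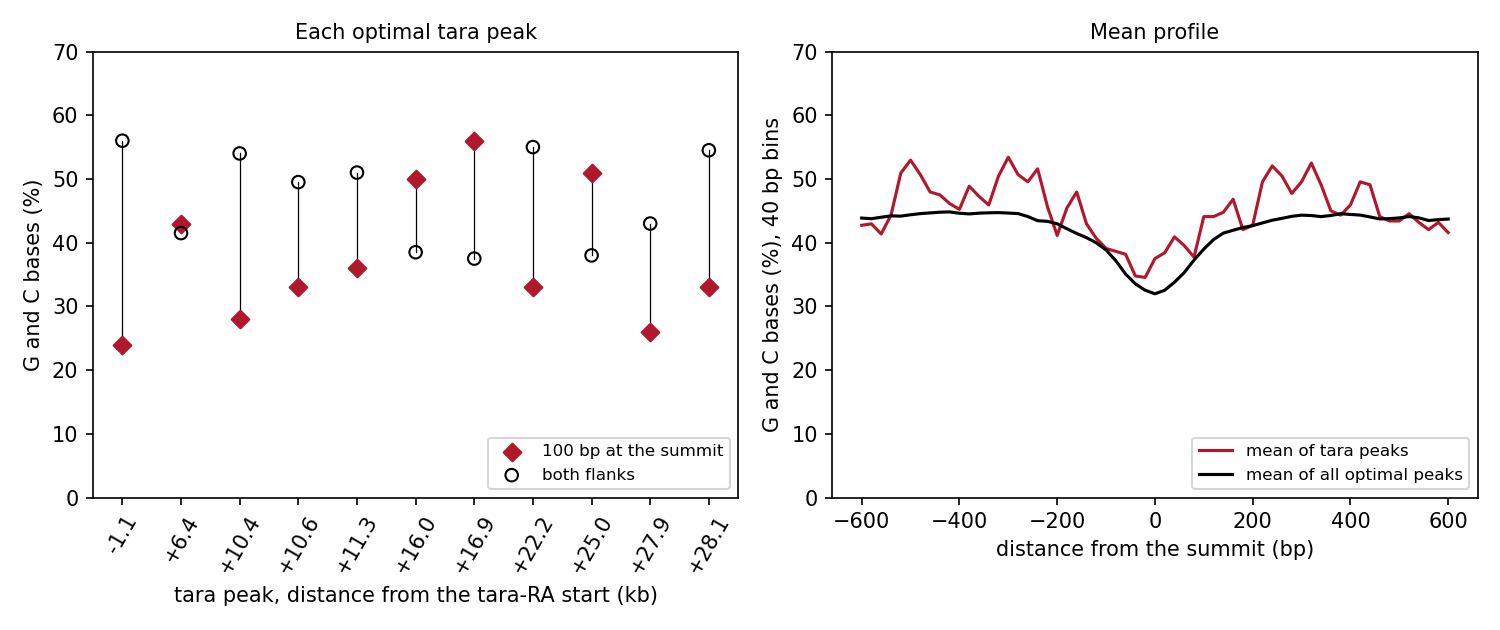
Share of G and C bases (%) at tara summits. On the left, each of the 11 peaks by distance from the tara-RA start (kb), with the 100 bp centre as a diamond and both flanks as a circle; 7 diamonds lie below their circle and 4 above. On the right, the mean in bins of 40 bp by distance from the summit for the tara peaks (red) and all optimal peaks (black), both lowest near the summit.

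Short sequences searched on both strands of the 100 bp centres gave few matches. AAAAAA was in 5 of 11 tara centres and 27.9% of all, GAGAG in 3 and 9.02%, and TTTATG in 2 and 13.4%. Single tara centres held CAGGTA (1.84% of all), TAATTA (10%), AGATAA (8.29%) and ATTTAAAA (6.92%). No tara centre held TATCGATA (1.47%), CACGTG (0.668%) or GGGCGG (1.10%). TTTATG and AAAAAA were both in the centre of the upstream peak and both in that of the peak at 10.4 kb. TAATTA, a word without G or C, was in the centre of the weakest peak. The GAGAG matches were at 11.3, 16.0 and 16.9 kb, that is at 2 of the 4 centres that were not lower in GC than their flanks. A match is a description of the letters, and with 11 centres no difference from the whole list was tested.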

How the data were processed

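Peak lists in dm6 were used, with the signal value of each peak as the authors deposited it. The authors' notes deposited with each sample say that the relaxed lists derive from the alignments of a replicate, or of both, plus 1 further file that also enters the control-normalised tracks and so appears to be the control. They give the relaxed lists as the source of the optimal IDR list. No source used here names the aligner, the peak caller or the scaling of the signal, so signal served to rank peaks within a list. Lists in dm3 were not used here. Depth per sample is unknown.

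Gene models came from Ensembl release 115, leaving out transposable elements (18164 genes on the listed chromosomes), and sequence from the RefSeq copy of Release 6, the dm6 build; the RefSeq start and end of tara are the same, and 0 peaks ran past a chromosome end. Entries were placed by summit, and replicate entries matched by overlap of at least 1 bp, the nearest summit taken. Strong replicate entries are the top 2993. No p-values were computed: there is 1 group, and peaks of 1 gene are not replicates. Members, gene lists, motifs and naming rules were chosen with earlier results of these data known. Named were tara, the genes beside it, 5 other genes with many summits, the 5 leading coding genes with windows 0.5 to 2 times as long (ties kept), the 3 closest in density and up to 4 per gene list. Alternatives were other windows, overlaps, distances and list sizes and each replicate alone. Functions were checked on made-up lists with known answers. Tools were Python 3.11.15, numpy 2.4.6, pandas 2.3.3 and matplotlib 3.10.9.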

Additional observations from a re-analysis of the deposited data

How the results depend on the processing

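Across 10 results and 46 alternatives, 37 values stayed within 1.5 times the reported count or, for median GC, within 1 SD, and 9 moved further. The stronger 0.5 of the optimal list left 6 tara summits (0.164 per kb). With each replicate alone the number ran from 6 to 10, the density from 0.164 to 0.273 per kb, the place among genes from 3 to 11 and the number within 500 bp of a tara start from 0 to 1, with the fewer summits and place 11 in replicate 3. A window with 5 kb upstream, which takes in the optimal summits 3167 and 3784 bp before tara-RA, put tara at place 2 among genes. Requiring overlap of at least 0.5 of each peak left 5 tara peaks with a strong entry in replicate 3. The peaks at 10.4 and 16.0 kb were too narrow to meet that rule. The peak at 28.1 kb was also lost, as its only strong entry in replicate 3 was that of its neighbour. At 200 bp, 0 summits lay near a tara start, since the nearest was 280 bp away. Beyond these points of width and position, the cause was not tested for any of these. No paired analysis was possible because there is 1 group. Depth is unknown, and no untagged sample was analysed here, so sites enriched without the tagged protein cannot be told apart.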

Other observations

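Among the 42 genes with at least 5 optimal summits, those denser than tara were all shorter. Pgk, which encodes the glycolytic enzyme phosphoglycerate kinase, held 5 summits in 8.19 kb (0.611 per kb), ced-6, an adaptor gene for engulfment of dying cells, 5 in 12.3 kb (0.408 per kb) and lncRNA:CR43334 7 in 17.5 kb (0.401 per kb). Counting overlapping peaks once gave 4 for Pgk, 4 for ced-6 and 7 for lncRNA:CR43334. Pgk, ced-6 and lncRNA:CR43334 were named after their values were seen. In the pooled relaxed list tara was less prominent, ranking 36 among 18164 genes by number of entries. By the relaxed list of replicate 3 alone it ranked 176.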
